A study of Mus musculus with 6 samples.

Results

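Pnp and Pnp2 are neighbouring mouse genes for purine nucleoside phosphorylases, and their chromatin accessibility was examined together with everything listed within 50 kb of either gene. The pair was chosen on measured values: peaks at the Pnp2 start site had been seen to be lower in DKO than in WT libraries, so the DKO minus WT values of these windows are given as a description, with an error and no test. ATAC-seq, in which the transposase Tn5 cuts open DNA and adds sequencing adapters, was performed on preadipocytes from inguinal white adipose tissue at day 0, before differentiation. WT cells came from wild type mice and DKO cells from mice with the genotype Hmgn1-/- and Hmgn2-/-, with 3 libraries for each genotype. The labels give the strain of all as C57BL/6, and the study's list of materials gives the DKO line as B6.Cg-Hmgn2tm1.1Mbus Hmgn1tm1Mbus/Mmjax, a congenic line, beside C57BL/6 WT mice. HMGN1 and HMGN2 are nucleosome binding proteins found throughout chromatin, and the mice lack both in the whole body, not in adipose tissue alone. According to the study's methods the mice were adults and the cells were grown on collagen coated plates, so culture is part of what the libraries measure. Nothing in the labels says whether the 3 libraries of a genotype came from separate animals, and all errors below describe the spread between these libraries.

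Purine nucleoside phosphorylase splits inosine and guanosine, and their deoxy forms, into the free base and a ribose phosphate. It is the step between the nucleoside and the base in purine salvage and breakdown: adenosine deaminase acts before it, and hypoxanthine phosphoribosyltransferase (Hprt), guanine deaminase (Gda) and xanthine dehydrogenase (Xdh) act on its products. Loss of this enzyme in humans and mice is known above all for its harm to T cells, through the build-up of deoxyguanosine. Pnp2 is a close copy of Pnp on the same strand.

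The region ran from position 50881082 to 51015237 of chromosome 14 (mm10, the build GRCm38), a stretch of 134156 bp set by both gene bodies in GENCODE M21 plus 50 kb on each side. Values are given throughout in the order of replicates 1 to 3 of a genotype. The region held 49, 43 and 51 summits in WT and 45, 48 and 45 summits in DKO, which is 281 of the 1797083 summits in all lists. A summit is the highest base of a peak called by MACS2 in 1 library. Summits were gathered into windows reaching 250 bp to each side of a summit, of which 26 of 179249 lay in the region, and 14 of these 26 had a listed summit in all 6 libraries. For each summit the lists hold a fold enrichment, which is the ratio of the reads piled up over the summit (pileup) to the local background in the same library, each plus 1, and a −log10 p. The pileup and the local background were solved from those columns. They are called reads here, but the names of the lists carry the term tn5, so each unit may be a Tn5 cut site, and the sources used here do not say how far reads were shifted or extended. MACS2 takes the local background from the reads around the summit, so a tall peak raises the background it is compared with.

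Pnp (ENSMUSG00000115338.2) starts at position 50944302 in its main transcript, Pnp-201, which ends at 50953412. Its GENCODE gene body, from 50931082 to 50965237, is longer on both sides: a partial transcript, Pnp-203, starts upstream at 50931082, and another runs on through Pnp2. Pnp2 (ENSMUSG00000068417.8) runs from 50955992 to 50964749. A separately annotated protein coding gene, Gm49342 (ENSMUSG00000021871.19), runs from 50944517 to 50963136 on the same strand, from the start of Pnp into Pnp2. Each transcript has 6 exons, and 852 of 865 aligned coding bases were identical (98.5%). The likeness reaches well outside the exons: a stretch of 6495 aligned bases, from 50943041 to 50949444 at Pnp and from 50954703 to 50961102 at Pnp2, was 94.5% identical and holds both start sites.

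The sequences under the upstream side of each start site peak show how alike the copies are where the accessibility differed. The first is part of the RefSeq promoter entry of Pnp (chr14:50944053-50944274, plus strand, GRCm38.p6), and the next is the matching stretch of the Pnp2 peak in the same genome (chr14:50955670-50955890, plus strand). Capitals mark bases that differ or have no partner in the other copy.
Pnp: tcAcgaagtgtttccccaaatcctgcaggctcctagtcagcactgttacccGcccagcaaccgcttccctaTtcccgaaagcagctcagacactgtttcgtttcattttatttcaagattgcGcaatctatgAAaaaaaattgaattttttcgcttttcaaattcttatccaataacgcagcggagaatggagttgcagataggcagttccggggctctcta
Pnp2: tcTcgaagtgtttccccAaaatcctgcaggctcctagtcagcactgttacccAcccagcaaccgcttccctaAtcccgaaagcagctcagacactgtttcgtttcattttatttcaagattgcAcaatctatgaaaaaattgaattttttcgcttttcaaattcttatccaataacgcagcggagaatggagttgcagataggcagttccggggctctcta

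Of 220 aligned bases in these stretches, 216 (98.2%) were identical. The 4 substitutions, written with the Pnp base first, the position counted from 1 at the first Pnp base shown, and then the Pnp2 base, were A3T, G52A, T72A and G123A. A further 2 bases of Pnp and 1 base of Pnp2 had no partner, all in runs of A. Motifs were looked for on both strands, with each place counted once, and their frequency is given over the first 222 bases of 32851 RefSeq mouse promoter entries. The choice of motifs was made after the sequences had been seen. CCAAT, the CCAAT box, stood once in each copy and in 31.2% of entries. TTGCGCAA, a palindrome known to be bound by C/EBP factors, stood in Pnp and in 0.155% of entries, and the substitution G123A falls inside it, so that Pnp2 reads TTGCACAA there. Both copies hold the looser form TTGCNNAA at this place, as do 8.84% of entries. GGGCGG, the GC box, stood in Pnp on the minus strand and overlaps G52A, which leaves none in the Pnp2 stretch. This motif was in 28.8% of entries. Neither stretch held TGANTCA (AP-1), TATAAA (the TATA box) or TGACGTCA (the cAMP response element), found in 6.16%, 10.1% and 1.17% of entries. Both stretches stop short of the annotated starts at 50944302 (Pnp) and 50955992 (Pnp2). The bases just upstream of the starts, where a TATA box would lie, were therefore not fully searched. These matches describe the letters and no factor was measured.

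Accessibility at the Pnp2 start site was lower in the DKO libraries. The window lay at 50955484 to 50955984, upstream of Pnp2 and within introns of Gm49342 and of the Pnp transcript that runs through it, with its centre 258 bp from the annotated start. Its summit pileup was 96, 85 and 117 reads in WT and 38, 35 and 31 reads in DKO. Every DKO library was well below the lowest WT library. The DKO mean was 34.9% of the WT mean (34.7 ± 3.51 against 99.3 ± 16.3, SD, n = 3 each). Fold enrichment was 12.5, 12.4 and 13.8 in WT and 8.52, 8.05 and 7.84 in DKO, which also did not overlap but lay closer together. The local background was 6.76, 5.91 and 7.56 reads in WT and 3.58, 3.47 and 3.08 reads in DKO, so that the denominator of the ratio was lower together with its numerator. On the quantile-normalized log2 scale the DKO minus WT difference was −0.48 ± 0.13 (SE, limma) in fold enrichment and −1.26 ± 0.11 in pileup. The −log10 p of the best summit was 74.4, 66.5 and 94.2 in WT and 26.2, 23.6 and 21.1 in DKO. It stood in the top 6.70%, 5.33% and 7.32% of the WT lists and in the top 22.7%, 26.5% and 21.1% of the DKO lists.

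**Figure D1:**
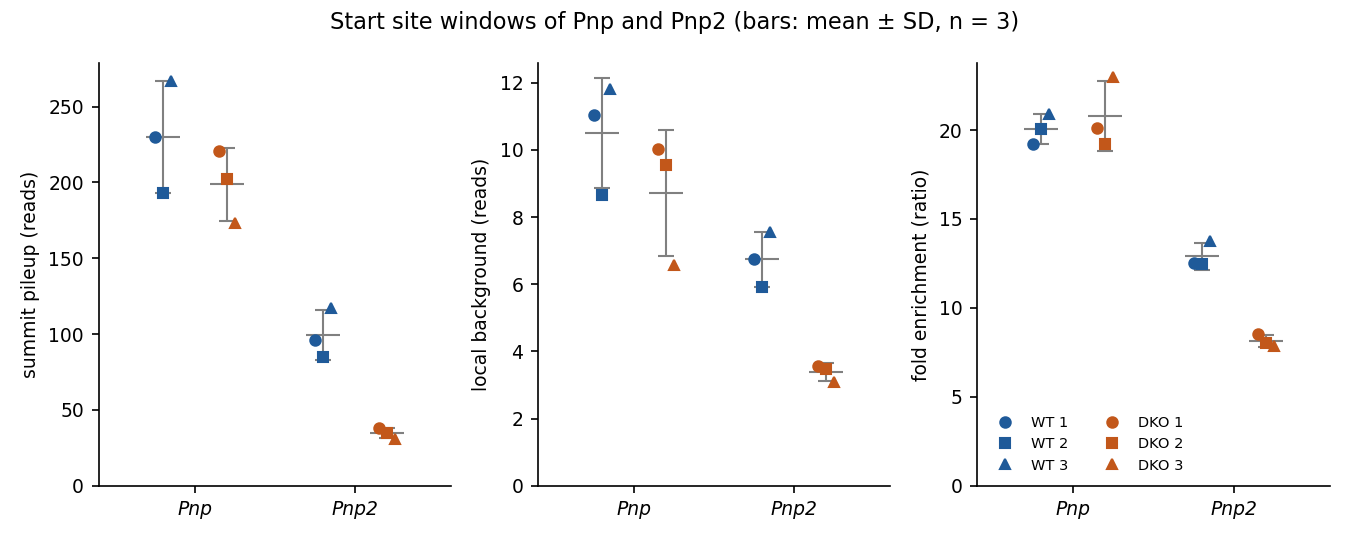
Summit pileup, local background (both in reads) and fold enrichment of the start site windows of Pnp and Pnp2 in each library, WT in blue and DKO in orange; grey bars give the mean and SD of 3 libraries. At Pnp2 the DKO points lie between 31 and 38 reads against 85 to 117 in WT, and at Pnp the pileups of the genotypes overlap.

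Of 103986 windows listed in every library, 53 (0.0510%) had a normalized pileup difference as low as that of Pnp2 or lower. By fold enrichment, 3931 of those windows (3.78%) were as low or lower. Both values place the window that the choice rested on and test nothing.

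At the Pnp start site the genotypes overlapped. The window at 50944244 to 50944744 covers the start of Pnp-201 and its 5′ UTR, and also the start of Gm49342, so accessibility here cannot be assigned to either gene alone. The pileup was 230, 193 and 267 reads in WT and 221, 202 and 173 reads in DKO. Fold enrichment was 19.2, 20.1 and 20.9 in WT against 20.1, 19.2 and 23.0 in DKO. The normalized difference was 0.16 ± 0.12 (SE) in fold enrichment and −0.04 ± 0.10 in pileup, so its sign depended on the measure. DKO replicate 3, which had the lowest pileup here, also had the lowest background level of all libraries (2.05 reads, against 2.41 to 2.58 in the other 5).

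The levels of the copies were also set side by side within each library. The highest pileup of the Pnp2 window over that of the Pnp window was 0.417, 0.440 and 0.438 in WT and 0.172, 0.173 and 0.179 in DKO. Pnp2 was thus the lower of the copies in 6 of 6 libraries, with a mean log2 ratio of −1.86 in pileup and −0.99 in fold enrichment. The mean ratio of pileups was 0.432 ± 0.013 (SD, n = 3) in WT and 0.175 ± 0.004 in DKO, 3 libraries each that do not overlap. The ratios hold the DKO values of Pnp2 on which the pair was chosen, so they are a description and no test is given.

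The highest summits of both windows do not lie at the same place in the copies, so summits were also matched through the alignment. A summit within 75 bp of the matching position counted as its counterpart, which gave 5 places, of which the plot of ratios shows all. At the Pnp summit 188 bp upstream of its start, pileups were 131, 103 and 166 reads in WT and 133, 149 and 74 in DKO. The matching Pnp2 place had 96, 85 and 113 reads in WT and 28, 35 and 31 in DKO. In pileup, Pnp2 was the lower copy here in every library, with a ratio of Pnp2 to Pnp of 0.746 ± 0.073 (SD, n = 3) in WT and 0.288 ± 0.114 in DKO. In fold enrichment it was the higher copy in all 3 WT libraries (12.5, 12.4 and 13.3, against 10.9, 10.8 and 13.04 at Pnp) and the lower in all 3 DKO libraries (6.33, 8.05 and 7.84, against 11.97, 14.2 and 9.84). The local background was higher at Pnp in every library. At the summit 50 bp upstream the ratio of pileups was 0.799 ± 0.087 in WT and 0.415 ± 0.122 in DKO, from 92, 73 and 117 Pnp2 reads in WT and 38, 34 and 31 in DKO. There too Pnp2 had the higher fold enrichment in every WT library, and also in DKO replicate 3 (7.84 against 7.52), so which copy is lower depends on the measure. These summits fall in the stretches printed above, which differ by 4 substitutions.

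The tallest Pnp summit, 182 bp past the start, had only a low counterpart in Pnp2. The ratio of pileups there was 0.178, 0.161 and 0.180 in WT and 0.131, 0.099 and 0.087 in DKO. At this summit the copies were further apart than at either upstream summit, in both genotypes. In an intron, 923 bp past the Pnp start, the order turned in pileup: Pnp2 was the higher copy in WT replicates 1 and 3 (ratios 1.23 and 1.56) and the lower in DKO (0.867, 0.75 and 0.882). WT replicate 2 listed no Pnp summit at that place. In fold enrichment Pnp2 was the higher copy there in all 3 DKO libraries as well (6.08, 5.66 and 3.99, against 2.82, 3.13 and 2.37). In every library with both summits listed, at each of these 5 places, the WT ratios of pileup were above the DKO ratios. At 486 bp past the start this rests on WT replicate 2 alone (0.455) against DKO replicates 1 and 2 (0.232 and 0.327). The ratios of fold enrichment overlapped between the genotypes at 182, 486 and 923 bp past the start.

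**Figure D2:**
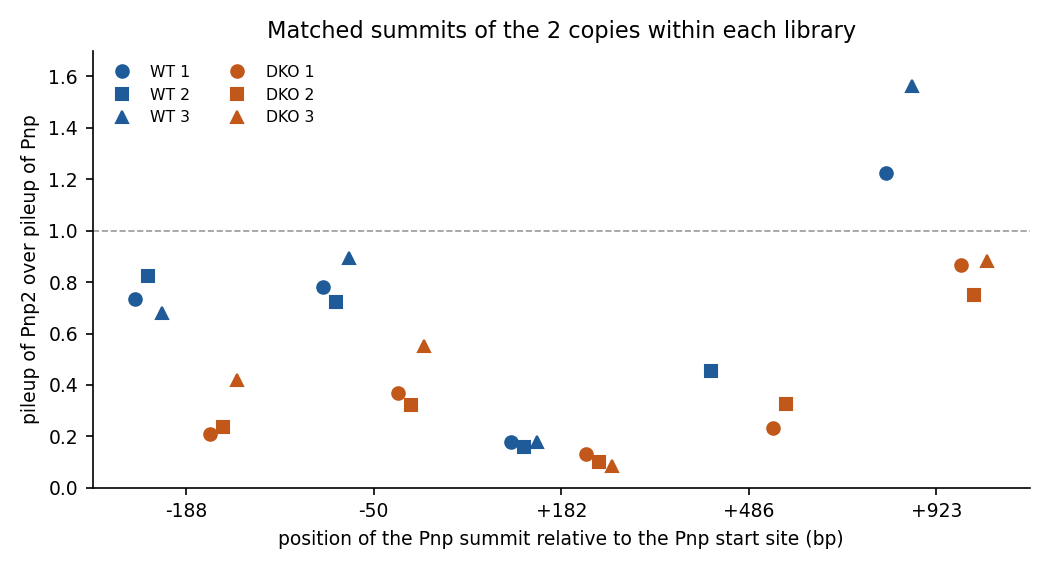
Pileup at a Pnp2 summit divided by the pileup at the matching Pnp summit of the same library (no unit), at 5 places given in bp from the Pnp start; the dashed line marks equal pileup. WT ratios (blue) lie above DKO ratios (orange) at each place, from 0.746 against 0.288 on average 188 bp upstream to 1.39 against 0.833 at 923 bp past the start. At 486 bp past the start only WT replicate 2 and DKO replicates 1 and 2 have a ratio.

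The next Pnp2 windows went the same way in pileup but not in fold enrichment. At 50956056 to 50956556, just past the annotated start, the pileup was 41, 31 and 48 reads in WT and 29, 20 and 17 in DKO. The fold enrichments of 5.44, 4.63 and 5.75 in WT and 6.57, 4.68 and 4.43 in DKO overlapped. At 50956623 to 50957123, in an intron, pileups of 38, 35 and 50 reads in WT stood against 26, 24 and 15 in DKO. Fold enrichment there was 5.07, 5.21 and 6.03 against 6.08, 5.66 and 3.99. In both windows the local background of the DKO libraries was lower than in any WT library. Relative to the background level of the whole library, the local background at the 3 Pnp2 windows was 2.35 to 3.14 in WT and 1.33 to 1.502 in DKO.

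**Figure D3:**
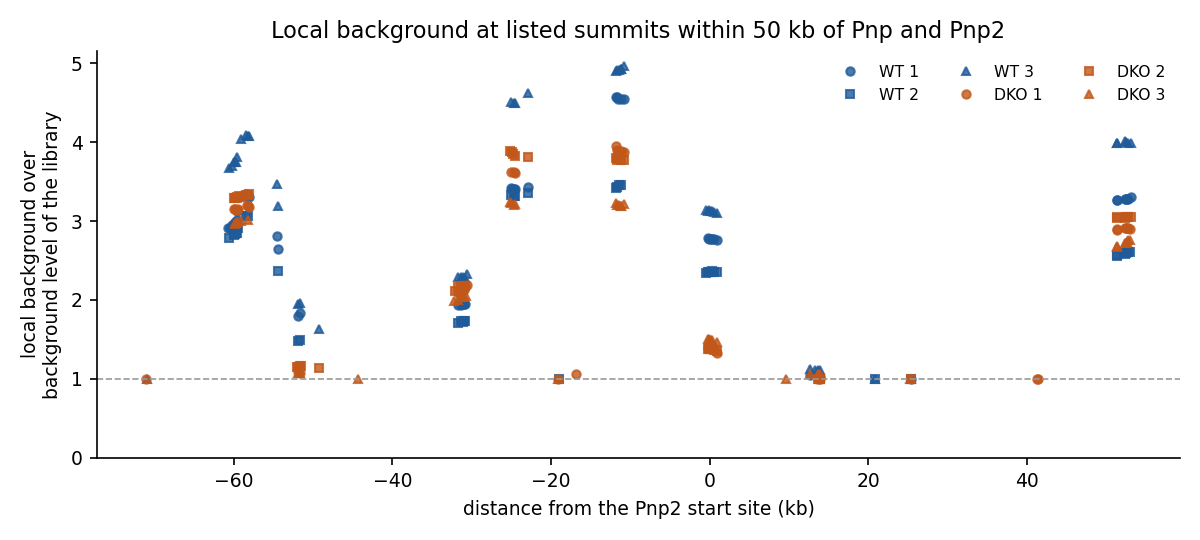
Local background at each listed summit over the background level of its library (no unit), by distance from the Pnp2 start in kb; WT blue, DKO orange, 1 point a summit. At Pnp2 (distance 0) the WT points lie between 2.34 and 3.14 and the DKO points between 1.33 and 1.502, while at Pnp, to the left, the genotypes mix.

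A read of 50 bases from an exact copy can be placed only through its mate, and the share of such words was measured. In the Pnp2 start site window, 56 of 452 words of 50 bases (12.4%) occurred elsewhere in the genome, and in the Pnp window 79 of 452 (17.5%). In each case all of these words had a copy within the region. The share was 30.5% in the window just past the Pnp2 start and 15.5% in the intron windows of both copies. The libraries were paired-end, so these shares are of words and not of read pairs that cannot be placed. How the authors' alignment placed such reads is not given in the sources used here, and their part in the difference was not tested. The rest of each window can be told apart by at least 1 base.

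Of the 26 windows of the region, 4 were lower in DKO without overlap in normalized fold enrichment and 2 were higher. Over all windows the shares were 7.67% lower and 8.76% higher. Of the 4 lower windows, only the Pnp2 start site window had a listed summit in all 6 libraries. Of the 2 higher ones, the Pnp intron window at 50944972 to 50945472 had no listed summit in WT replicate 2. Its fold enrichment was 2.66 and 2.55 in WT replicates 1 and 3 and 2.82, 3.13 and 2.37 in DKO. Its difference of 0.80 ± 0.37 (SE) thus rests in part on the lower limit given to WT replicate 2. In pileup, 7 windows were lower and 1 was higher, beside 8.27% and 7.94% of all windows. The 7 include all 3 Pnp2 windows. As the pair was chosen on this contrast, nothing is read from these counts. The median difference over the region was 0.03 in fold enrichment and −0.04 in pileup, against 0.01 and −0.002 over all windows, so the region as a whole lay near the others.

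**Figure D4:**
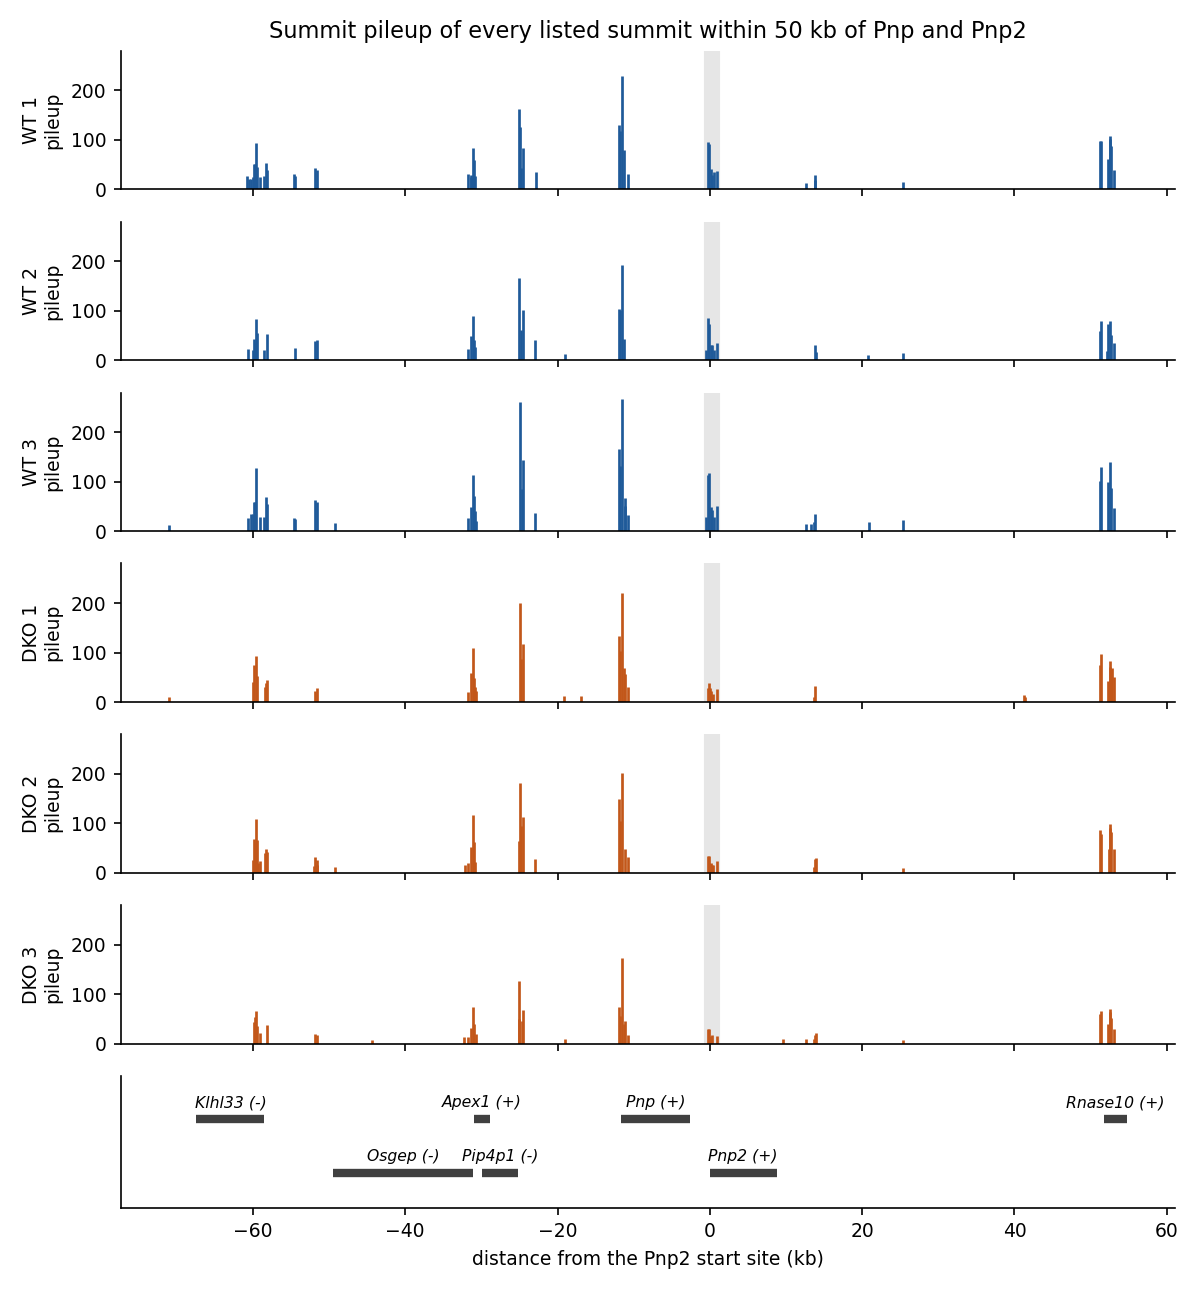
Pileup (reads) of every listed summit in the region, 1 panel a library, by distance from the Pnp2 start in kb, with protein coding genes and their strand at the bottom (Pnp drawn as Pnp-201, Gm49342 not drawn) and the Pnp2 start shaded. In the shaded part WT bars reach 85 to 117 reads and DKO bars 31 to 38, while the bars at Pnp, to the left, reach 193 to 267 reads in WT and 173 to 221 in DKO.

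The normalized values at the start sites of the flanking genes overlapped between the genotypes. In order of position, Klhl33, a member of the kelch-like family, had a window at 50897549 to 50898049 with pileups of 53, 54 and 70 reads in WT and 45, 48 and 39 in DKO, which did not overlap before normalization. After normalization they did overlap, with a pileup difference of −0.16 ± 0.13 (SE). Osgep, which takes part in a modification of transfer RNA, and Apex1, an endonuclease of DNA base excision repair, start back to back and share the window at 50924618 to 50925118. It had 84, 90 and 114 reads in WT and 109, 117 and 74 in DKO. Pip4p1, a phosphatase of phosphatidylinositol 4,5-bisphosphate, had fold enrichments of 17.5, 17.9 and 22.1 in WT and 19.5, 17.0 and 16.6 in DKO at 50930740 to 50931240. This window overlaps the ends of both gene bodies and also holds the start of the partial transcript Pnp-203. Its normalized pileup difference was −0.03 ± 0.12. Rnase10, of the ribonuclease A family and known from the epididymis, had 98, 80 and 130 reads in WT and 98, 87 and 67 in DKO at 51007117 to 51007617.

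Some windows away from the start sites lay apart between the genotypes. At 50904123 to 50904623, between Klhl33 and Osgep, the pileup was 39, 41 and 59 reads in WT and 29, 27 and 18 in DKO, a normalized difference of −0.64 ± 0.16 (SE), while the fold enrichment overlapped. As at Pnp2, its local background over the background level of the library was lower in DKO (1.07 to 1.16) than in WT (1.49 to 1.96). Around Klhl33, the windows at 50894990 to 50895490 and 50901193 to 50901693 were listed in all WT libraries, at 23 to 27 and 25 to 31 reads, and in no DKO library. No window of the region was listed in all DKO libraries and no WT library. A missing summit here means that no summit reached the lower limit of a list, as each list stops at its strongest peaks. Past Pnp2, the window at 50969566 to 50970066 had 29, 31 and 34 reads in WT and 32, 30 and 21 in DKO, and a weak one at 50981077 to 50981577 had 15, 14 and 23 in WT and, with no summit in DKO replicate 1, 11 and 8 in the others. The one window higher in DKO in both measures lay within Rnase10, at 51008765 to 51009265, with 39, 35 and 46 reads against 50, 49 and 30. DKO replicate 3 is the lowest of these 6 as counted, and the order came from the normalization. That window is also the last inside the 50 kb limit on the right, and the next one outside it, at 51017198 to 51017698, had 15, 13 and 13 reads in WT and 13 in DKO replicate 1 alone. On the left, the last window inside, at 50884782 to 50885282, was listed with 12 reads in WT replicate 3 and 10 in DKO replicate 1, and the next outside, at 50870302 to 50870802, had 42, 37 and 66 reads in WT and 67, 50 and 54 in DKO.

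The rest of the purine pathway was compared through the windows at gene start sites, which the choice of the pair did not use. The list held 48 genes for turnover of nucleosides and bases, purine synthesis and nucleoside transport, here called the purine list. It also holds genes that act on pyrimidines, among them Upp1, Upp2, Tymp and Nt5c3. Of the 48, 41 had a window within 1 kb of a start site, 36 of them listed in all 6 libraries. None passed the test in either direction (limma, Benjamini-Hochberg adjusted over all 179249 windows, threshold 0.05), beside 65 windows (0.0363%) lower and 42 (0.0234%) higher over the genome. At an unadjusted p under 0.05 there were 7 genes, all higher in DKO, where 11.8% of all windows were under that p. This count was 4 without WT replicate 1 and 2 without scaling or without the variance trend. The median difference of the 41 was 0.13 on the log2 scale, against 0.01 over all windows. Normalized values did not overlap for 1 gene that was lower, Slc28a2, and for 6 that were higher, Gda, Xdh, Dck, Nt5c3b, Ampd3 and Gart, where 7.67% of all windows were lower and 8.76% higher without overlap.

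Genes that act next to the phosphorylases gave the following values. Xdh, which turns hypoxanthine and xanthine into uric acid, had fold enrichments of 7.82, 7.19 and 8.46 in WT and 10.8, 9.80 and 10.1 in DKO. All DKO libraries were above all WT libraries, with a difference of 0.57 ± 0.13 (SE) and the smallest adjusted p of the list (limma, 0.155). Gda, which deaminates guanine, had 8.16, 7.53 and 9.49 in WT and 9.38, 9.63 and 8.67 in DKO. These fold enrichments overlapped before normalization, and the normalized difference was 0.33 ± 0.13 (limma adjusted p = 0.340). Hprt, which returns hypoxanthine and guanine to nucleotides, differed by −0.03 ± 0.13 and Aprt, which does so for adenine, by −0.27 ± 0.14. The normalized values of both overlapped. Before normalization the fold enrichments of Hprt did not, at 12.8, 12.1 and 12.8 in WT and 10.04, 11.5 and 11.3 in DKO. Those of Aprt overlapped, at 13.2 to 24.7 over the 6 libraries. Mtap, the phosphorylase of methylthioadenosine, differed by 0.06 ± 0.09.

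Upstream of the pair, Ada, which deaminates adenosine to inosine, had fold enrichments of 5.35, 4.06 and 9.40 in WT and 6.62, 7.93 and 6.47 in DKO. WT spread more than the genotypes differed (0.42 ± 0.22, limma adjusted p = 0.458). Adk, the adenosine kinase, differed by 0.12 ± 0.17, Dguok, the mitochondrial deoxyguanosine kinase, by 0.07 ± 0.12, and Nt5e, the cell surface nucleotidase CD73, by 0.21 ± 0.15. Among genes whose normalized values did not overlap, the 4 largest differences belonged to Xdh, given above, Ampd3, Nt5c3b and Slc28a2. Ampd3 is an AMP deaminase, Nt5c3b a cytosolic nucleotidase and Slc28a2 a transporter of purine nucleosides. Ampd3 was listed at 3.62 in WT replicate 3 alone among WT and at 3.24, 3.19 and 2.85 in DKO, so that its difference of 0.75 ± 0.41 rests on the lower limit given to the other WT libraries. Nt5c3b had 10.8, 12.6 and 15.2 in WT and 16.4, 17.6 and 12.9 in DKO (0.44 ± 0.13, limma adjusted p = 0.208). Before normalization its fold enrichments overlapped. Slc28a2 had 5.55, 5.41 and 7.04 in WT and 3.63, 4.82 and 3.93 in DKO (−0.37 ± 0.22, limma adjusted p = 0.478).

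**Figure D5:**
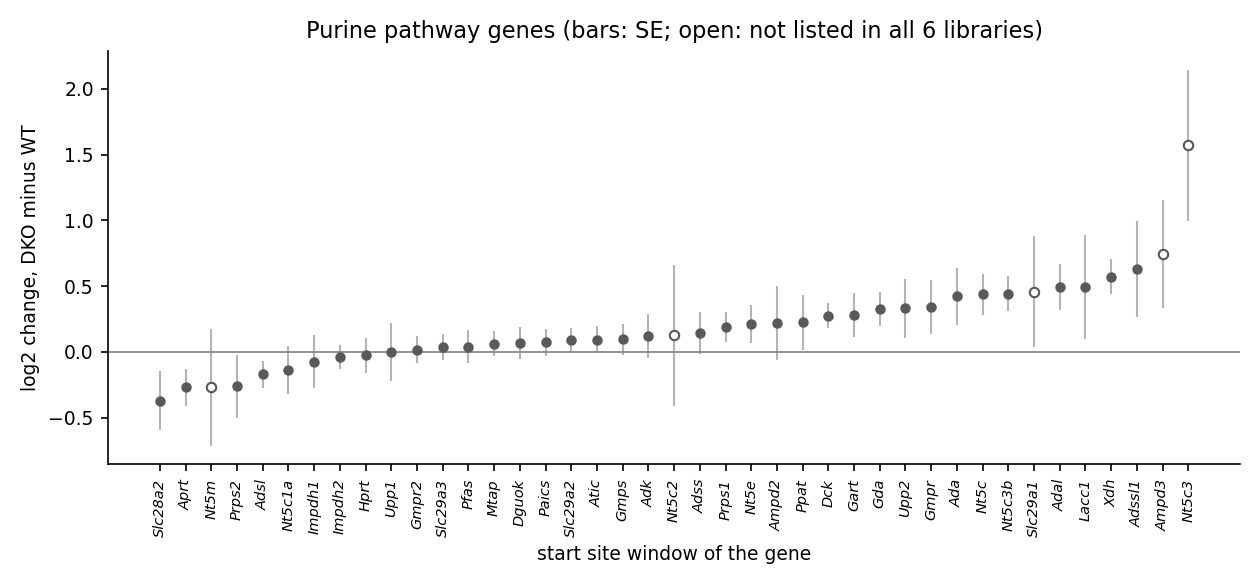
DKO minus WT difference in normalized log2 fold enrichment at the start site windows of 41 genes of the purine list, in order of size. Bars give the SE from limma, and open points are genes not listed in all 6 libraries. The differences run from −0.37 for Slc28a2 to 1.57 for Nt5c3, a pyrimidine nucleotidase listed in 4 libraries, and none passed the test.

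The start sites whose pattern over the 6 libraries was most like that of Pnp2 were found by Pearson correlation of normalized log2 fold enrichment among 12291 protein coding genes outside the region. They were Hoxa11 (r = 0.999), Lars (0.991), Ech1 (0.987), Rrs1 (0.986) and Urod (0.978). With 6 points in 2 genotypes, such a value mostly says that the WT libraries were alike, the DKO libraries were alike and the genotypes differed. Hoxa11, a homeobox gene, had fold enrichments of 4.38, 4.51 and 4.78 in WT and 3.15, 3.003 and 2.95 in DKO. Urod, an enzyme of heme synthesis, had 18.4, 18.5 and 19.1 against 12.2, 13.0 and 12.2. Ech1, of fatty acid breakdown, had 12.7, 11.4 and 13.9 against 9.06, 8.75 and 8.51. Lars, a leucyl transfer RNA synthetase, and Rrs1, a factor in ribosome assembly, spread over 0.29 and 0.23 log2 units, against 0.74 for Pnp2.

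The libraries were checked for their labels and cell type. The Hmgn2 start site window was listed at 42, 39 and 52 reads in WT and in no DKO library, and that of Hmgn1 at 76, 90 and 140 reads in WT and 107, 130 and 87 in DKO, so the labels are borne out at Hmgn2, and the lists do not show the loss of Hmgn1. A summit within 1 kb of a start site was listed in all 6 libraries for 12 of 14 preadipocyte and stromal markers, the exceptions being Ly6a (3 libraries) and Dlk1 (5). Summed pileups of this list were 603, 516 and 667 reads in WT and 535, 502 and 367 in DKO. None of 4 mature adipocyte markers was listed in all 6, and 3 had no summit in any. For macrophage and leukocyte markers 2 of 8 were listed in all 6 (Cd68 and Csf1r), with sums of 85 to 115 reads in WT and 88 to 141 in DKO. Ptprc, which defines leukocytes, was listed in WT replicate 1 alone, and Itgam in all 3 DKO libraries and no WT library. Adgre1, a macrophage marker, was listed in DKO replicates 1 and 2 at 13 and 11 reads and Cd3e, of T cells, in DKO replicate 3 at 10 reads, both in no WT library. Of 4 endothelial markers 3 were listed in all 6, with sums of 137 to 199 in WT and 124 to 172 in DKO, and Cdh5 was listed in the DKO libraries only, at 12 to 24 reads. Of 4 epithelial markers 1 was listed in all 6. Whether other cells have a part in the Pnp2 values was not tested.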

How the data were processed

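Chromatin of WT and DKO preadipocytes (day 0) was profiled by ATAC-seq, with 3 libraries for each genotype. Per the labels and the study's methods, the authors trimmed paired-end reads (cutadapt 1.18), aligned them to mm10 with Bowtie2 2.3.4.3, removed duplicate and mitochondrial reads and ran MACS2 on every library by itself. The names of the lists give a p of 0.01 and a limit of 300000 peaks where the methods give default settings. The deposited fold enrichment is the authors' ratio of pileup to local background, and the deposited −log10 p and q were not corrected for depth. Lists held 299433 to 299620 summits. Read totals were not analysed here, and the lowest listed pileup was 8 to 12 reads. Pileups were solved from fold enrichment and p under the Poisson model of MACS2 and came out whole (within 0.05) for 100% of summits.

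Windows reaching 250 bp to each side were centred on the best ranked summits and kept where 2 or more libraries had a summit with q under 0.01, on chromosomes 1 to 19 and X. The value of a window was its highest fold enrichment, or the lowest of the list where none was listed. Log2 values were quantile-normalized and compared with limma 3.58.1 in R 4.3.3 (lmFit, eBayes with trend, Benjamini-Hochberg over all windows). Counts of windows without overlap use normalized values. The fit and the solver were tested on simulated data. Alignments used blastn 2.17.0 and Biopython 1.88. Start sites came from GENCODE M21. Named genes were the pair, protein coding genes starting in the region with a window within 1 kb of a start site, fixed pathway genes plus the 4 largest differences without overlap, and the 5 most like patterns. Members, gene lists and rules were chosen with earlier results of these data known. Alternatives were other scalings, measures, window sizes, filters and variance models, a replicate block and leaving out each library.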

Additional observations from a re-analysis of the deposited data

How the results depend on the processing

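The Pnp2 difference in fold enrichment (−0.48) stayed lower in DKO except with windows reaching 100 bp to each side, where the window nearest to the start lies on another summit and the value was 0.026. The narrow window at the same centre, chosen after seeing the data, gave −0.63. The difference was −0.67 without scaling, −1.26 in pileup, −1.41 in −log10 p and −1.47 in pileup over the background level, the last also chosen after seeing the data. Leaving out each library gave −0.55 to −0.40. For Pnp the difference turned in sign to −0.036 in pileup and −0.16 over the background level. It was 0.048 without scaling, 0.0086 in −log10 p and 0.060 to 0.256 on leaving out each library. Windows of the region lower in DKO numbered 8 without scaling, 7 in pileup and 2 among windows listed in all 6 libraries, and higher windows 0, 1 and 1. Higher windows were 1 in −log10 p, 0 with windows reaching 500 bp to each side, 0 over the background level and 2 to 4 on leaving out a library. The within-library Pnp2 to Pnp log2 ratio was −2.0 to −1.73 on leaving out a library. Calls over all windows were unstable. They were 157 lower and 87 higher with median centring, 14 and 12 without scaling, 129 and 118 in −log10 p, 614 and 296 among windows listed in all 6 libraries and 2089 and 2047 without the trend. Lower calls were 39 in pileup, 37 with the narrow windows and 249 over the background level. Leaving out each library left 0 to 1 lower and 0 to 6 higher. No gene of the purine list was called in any of these fits. Its 7 genes at an unadjusted p under 0.05 became 1 to 9, the lowest over the background level and the highest in pileup. The cause of these changes was not tested.

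WT and DKO libraries of the same number shared no pattern in the normalized values (correlation of deviations 0.005, −0.011 and −0.007). Whether they were prepared as pairs is not given in the sources used here. With a replicate block, the Pnp2 difference stayed at −0.48 (SE 0.14) and 0 windows were called lower and 0 higher over the genome, with 18196 at an unadjusted p under 0.05 (limma). The lists end at different depths, −log10 p of 3.54 in DKO replicate 3 and 5.63 in WT replicate 3, so weak summits were not held to one limit.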
